A study of Rattus norvegicus with 6 samples.

Results

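The thin filament of heart muscle was followed through 9 of its genes, chosen by their symbols from the 32623 genes of the deposited table. They were the striated muscle actins Actc1 and Acta1, the troponin genes Tnnt2, Tnni3, Tnni1 and Tnnc1, the tropomyosin gene Tpm1, and the pointed end genes Tmod1 and Lmod2. All 9 passed the filter on low values and were tested. RNA of rat myocardium had been sequenced in 6 libraries of wild-type animals described as male, 3 from the sham group and 3 from the ischemia group. In ischemia, the left anterior descending coronary artery was tied off under anesthesia through an opened left chest, and all samples carry a 30 min label. Sham animals are labelled as such, and the labels do not describe their operation separately. Age, strain and the region of the heart that was taken are not given in the labels, and the labels do not tie libraries to animals. The study describes its expression data as representative of independent experiments without tying them to these libraries, so p-values measure the spread between these libraries, which may in part be technical.

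Each thin filament is a double strand of actin, along which tropomyosin lies as a coiled coil. A troponin complex sits on the tropomyosin at regular steps. Troponin C binds calcium, troponin I holds the filament inhibited at rest, and troponin T ties the complex to tropomyosin, so that a rise of calcium moves tropomyosin aside and lets myosin bind. The pointed end of the filament, toward the middle of the sarcomere, is capped by tropomodulin, and leiomodin allows it to lengthen. In the adult rat heart the main actin is the cardiac form from Actc1, and the skeletal form from Acta1 is known from the fetal heart and from hearts under load. Likewise slow skeletal troponin I, from Tnni1, precedes cardiac troponin I, from Tnni3, during development.

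The libraries held from 68529126 to 79591989 counted reads, of which the 9 genes took from 1.83% to 4.50%. Atrial marker genes summed to 48553 and 39538 FPKM in sham 1 and sham 3 but to 216 FPKM in sham 2, and to 9639, 2079 and 1280 FPKM in ischemia 1, 2 and 3. Here FPKM is the read count scaled by gene length and library size. Of the atrial sums, Nppa alone held 2051 and 1251 FPKM in ischemia 2 and 3, against 67.7 FPKM in sham 2. Each other atrial marker was lower in ischemia 2 and 3 than in sham 2. Summed ventricular markers were at 1263 and 1473 FPKM in sham 1 and sham 3, where the atrial sums were highest. They were from 3861 to 12176 FPKM in the other 4 libraries. Of the 5 ventricular markers, Lbh and Hey2 did not separate the libraries this way. Lbh was at 97.4 and 98.1 FPKM in sham 1 and sham 3 and at 81.0 FPKM in ischemia 2. Hey2 was at 5.45 FPKM in sham 3 and at 3.71, 2.21 and 4.01 FPKM in ischemia. The sham libraries thus stood apart from each other in chamber markers, and over 48 genes of the Y chromosome sham 1 held 161 reads where each other library held from 3218 to 8970. Neutrophil and monocyte markers summed to between 16.3 and 25.2 FPKM in sham and between 537 and 3927 FPKM in ischemia. By edgeR 9 of 9 were called higher, beside 5.18% of all tested genes. The sum over the 8 cardiomyocyte markers in the table ranged from 16864 to 27973 FPKM in sham and from 9458 to 17095 FPKM in ischemia, so the labelled tissue was heart muscle in every library. Fibroblast markers summed to between 685 and 2223 FPKM in sham and between 264 and 682 FPKM in ischemia, and endothelial markers overlapped, at 121 to 178 and 151 to 194 FPKM. Skeletal muscle markers summed to between 1.88 and 13.9 FPKM in sham and between 3.46 and 6.02 FPKM in ischemia, and Actn3, Cacna1s and Pvalb had no read in at least 1 library.

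**Figure D1:**
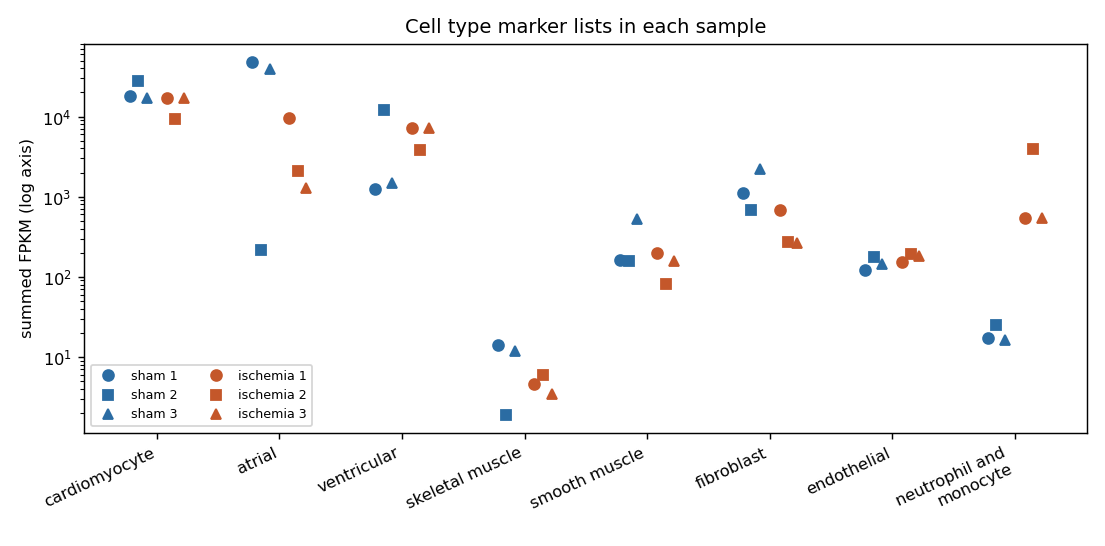
Summed FPKM (vertical log axis) of 8 cell type marker lists (horizontal axis) in each of the 6 libraries, with 1 symbol per library. Sham 1 and sham 3 sit above all other libraries in atrial markers and below them in ventricular markers, and all 3 ischemia libraries sit above sham in neutrophil and monocyte markers.

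Short promoter windows are shown because the 9 genes differ in which elements known from muscle genes their promoters hold. RefSeq promoters (GRCr8, 250 bases before to 50 after the start) were matched for 8 of the 9 genes, all but Tnnc1. The CArG box, on which serum response factor acts, was found in 2 of the 8, the actins Actc1 and Acta1, and in 1.64% of all 33469 promoters. In the windows the CArG box stands in capitals.
Actc1, chr3:121271806-121271835, gene on the minus strand, box beginning at position 3 from the start site: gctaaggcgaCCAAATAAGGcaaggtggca
Acta1, chr19:68784269-68784298, gene on the minus strand, box beginning at position -94: tgcccaacacCCAAATATGGcttgggaagg
The MCAT element, CATTCC on either strand, to which TEAD factors bind, was found in 3 of the 8 promoters and in 14.2% of all promoters. Its match is in capitals, and in Tpm1 it lies on the opposite strand.
Acta1, chr19:68784244-68784273, position -67: gaagggcaacaaCATTCCttcggggcggtg
Tnnt2, chr13:49819028-49819057, plus strand, position -83: tctcctgctgcaCATTCCtcccaccgtggg
Tpm1, chr8:76543429-76543458, gene on the minus strand, position -31: tggctgtcctaaGGAATGcggtcgcccccc
A TATAAA on the gene's strand was found in 1 of the 8, Acta1, and in 8.8% of all promoters, and is in capitals.
Acta1, chr19:68784206-68784235, position -29: gctccaggactaTATAAAaacctgagctag
The MEF2 site was found in none of the 8 windows (0 of 8) and in 3.29% of all promoters. These elements are matches of letters in a window, not measured binding. Of the 8 genes, Acta1 alone held a CArG box, an MCAT element and a TATAAA together, and its matches did not overlap each other.

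Among sham libraries the order of mean FPKM was led by Actc1 at 10458 ± 326 (SD, n = 3). Tnni3 at 5408 ± 1241 FPKM and Tnnt2 at 5300 ± 880 FPKM followed and were not separated beyond their spread. Tnnc1 at 3212 ± 348 FPKM came next, and Tpm1, at 2445 ± 490 FPKM, was below it in each of the 3 sham libraries. Acta1, at 762 ± 460 FPKM, was the lowest of the abundant genes. The pointed end genes were far lower, Tmod1 at 126 ± 12.8 FPKM and Lmod2 at 63.0 ± 7.31 FPKM, and Tnni1 was at 4.94 ± 3.53 FPKM. In ischemia the order began with Tnnt2 at 4216 ± 1573 FPKM, Tnni3 at 3846 ± 1661 FPKM and Actc1 at 3414 ± 1127 FPKM, which did not differ beyond their spread. Actc1 was below all 3 adult troponin genes in ischemia 1 and above them in ischemia 2 and ischemia 3.

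Cardiac actin was lower in ischemia in all 3 libraries. Actc1 (ENSRNOG00000008536, chr3:105507403-105512939, minus strand, on the file's unnamed build) was at 10338, 10827 and 10210 FPKM in sham 1, 2 and 3, and at 2654, 2879 and 4709 FPKM in ischemia 1, 2 and 3. The groups did not overlap, and the highest ischemia value lay under the lowest sham value. Sham 1 and sham 3 differed from sham 2 in chamber markers, and the part of that difference in the Actc1 levels was not tested. The quasi-likelihood test of edgeR over 13964 genes gave a log2 fold change of -1.70 ± 0.40 (SE), a level 3.25-fold lower, at an adjusted p of 0.0536, which missed the threshold of 0.05. It passed with limma on log2(FPKM + 0.1) at an adjusted p of 0.0309, with limma on log2(FPKM + 1) at 0.0346, with DESeq2 at 1.58e-05, and in edgeR on genes of mean FPKM 5 or more at 0.0388. Over the 17 alternatives the log2 fold change stayed between -2.06 and -1.54 and the adjusted p ranged up to 0.389, the value when sham 1 and sham 3 were both left out. In bulk tissue fewer cardiomyocytes and less Actc1 RNA per cardiomyocyte cannot be told apart.

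**Figure D2:**
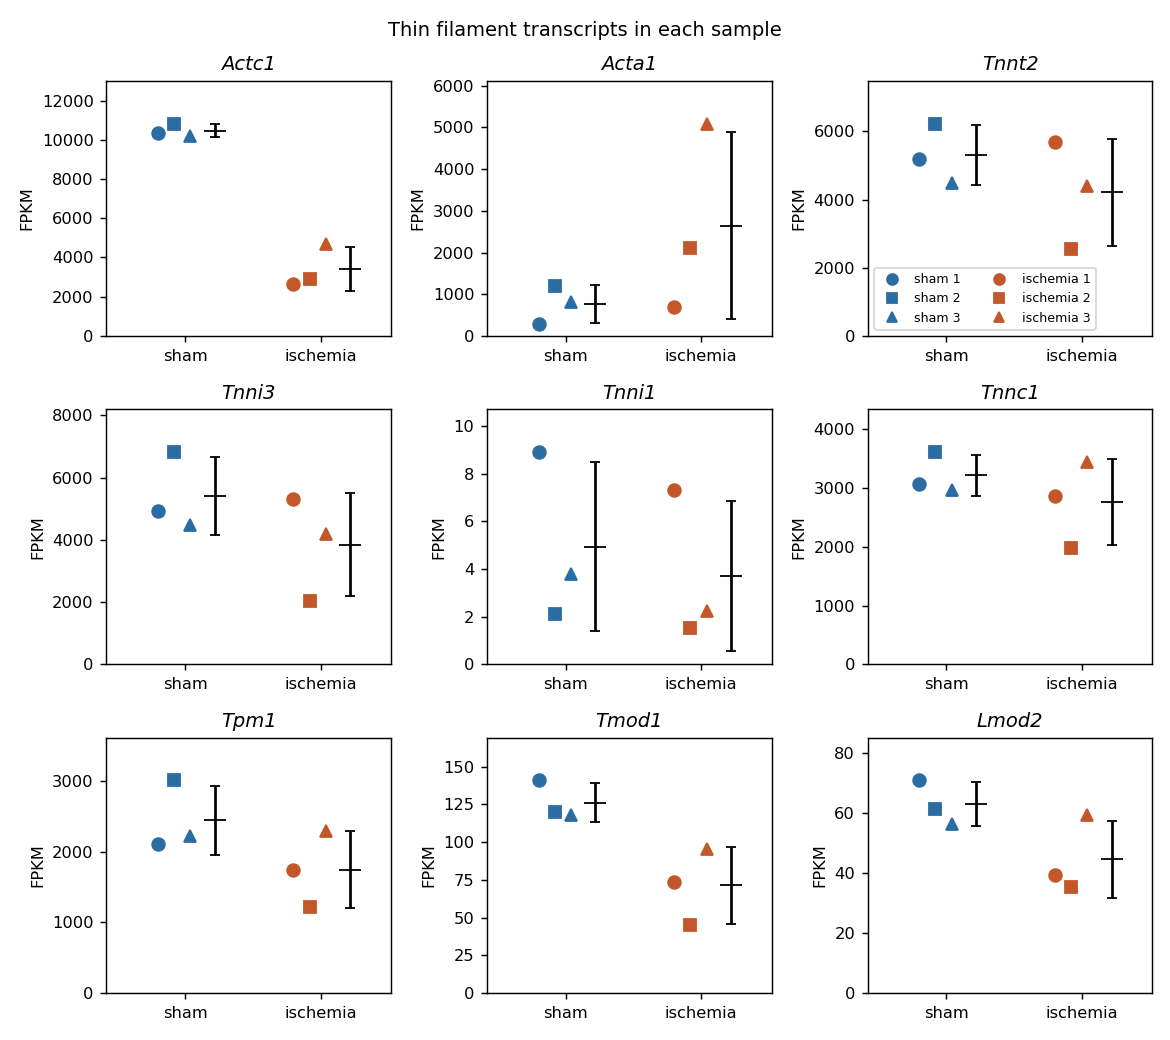
FPKM (vertical axes, each starting at 0) of the 9 thin filament genes in the sham and ischemia groups, with 1 symbol per library and the group mean ± SD as a black bar (n = 3). Actc1 and Tmod1 are the 2 panels in which the groups do not overlap, both with ischemia below sham, and Acta1 is the panel with the higher ischemia mean.

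Skeletal actin had a higher mean in ischemia, with wide spread. Acta1 (ENSRNOG00000017786, chr19:56674074-56677084, minus strand) was at 278, 1193 and 816 FPKM in sham 1, 2 and 3 and at 706, 2118 and 5091 FPKM in ischemia 1, 2 and 3. Ischemia 1 lay below 2 of the sham libraries, so the groups overlapped. By edgeR the log2 fold change of 1.66 ± 0.88 (SE) did not pass, at an adjusted p of 0.230. Without ischemia 3, its highest library, it was 0.67, without sham 2 it was 2.32, and with the atrial marker level as a covariate it was 0.50. Acta1 and Actc1 encode near-identical proteins, and the counting rule for reads that match both is not given in the sources used here, so reads may have been split or lost between them. LOC100361457, annotated as actin, gamma 1 propeptide-like (chr3:75643054-75644954), held 3342, 12430 and 11303 reads in sham and 16725, 32239 and 34053 in ischemia, and whether it shares reads with Acta1 was not tested.

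The share of skeletal actin in the actin pair was higher in all 3 ischemia libraries, and so was the level of most genes relative to Actc1. Acta1 made up 2.62%, 9.93% and 7.40% of the summed FPKM of both genes in sham 1, 2 and 3, and 21.0%, 42.4% and 51.9% in ischemia 1, 2 and 3. The group means were 6.65% ± 3.71 and 38.4% ± 15.8 (SD, n = 3 each), a difference of 31.8 percentage points with an exact two-sided permutation p of 0.1, the smallest that 3 against 3 libraries allow. The lowest ischemia share was above the highest sham share, and in ischemia 3 the skeletal form was the larger of the pair. The share goes up with the ratio of Acta1 to Actc1, and the ratio to Actc1 lay above sham without overlap for 77.2% of the 13963 other tested genes and below for 0.279%. Of the 8 other thin filament genes it did so for 7, all but Tnni1. The separation is therefore not particular to Acta1, whose own FPKM overlapped between the groups. The difference was 31.2 points on raw counts, 28.5 points when sham 1 and sham 3 were left out, and between 25.05 and 40.5 points when any 1 library was left out. The sum of both genes did not stay level. It was 10616, 12020 and 11026 FPKM in sham and 3360, 4998 and 9799 FPKM in ischemia, without overlap, and ischemia 3, the highest ischemia library for each of the actins, was nearest to sham.

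**Figure D3:**
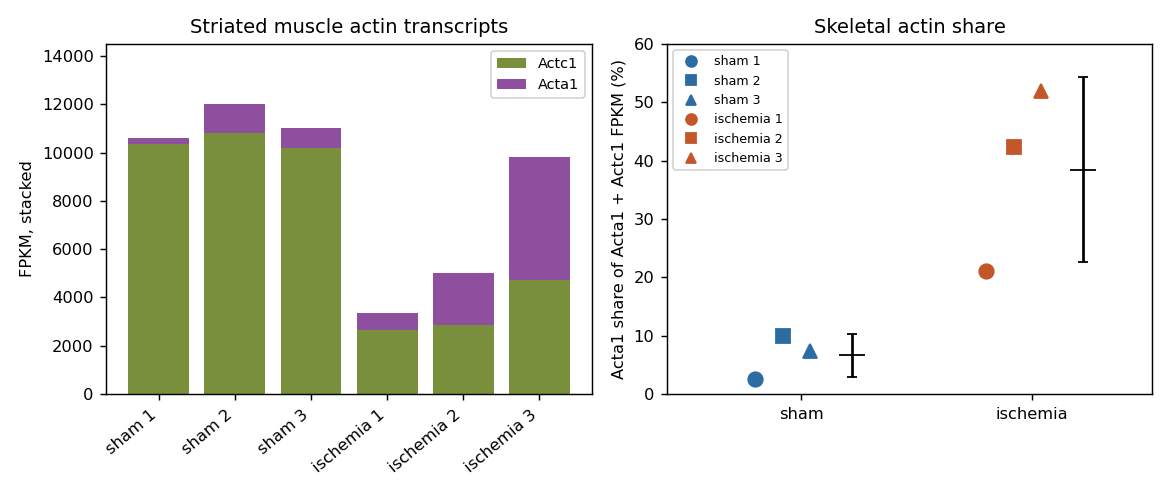
Left, FPKM of Actc1 and Acta1 stacked for each library (linear axis from 0). Right, the Acta1 share of their summed FPKM in percent, with 1 symbol per library and the mean ± SD in black (n = 3), where sham lies between 2.62% and 9.93% and ischemia between 21.0% and 51.9%.

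The troponin genes of the adult heart overlapped between the groups, and the library with the most neutrophil and monocyte signal was the lowest for each. Tnnt2 (ENSRNOG00000033734, chr13:52662996-52680990, plus strand), which encodes cardiac troponin T, was at 5189, 6231 and 4482 FPKM in sham and at 5694, 2564 and 4390 FPKM in ischemia. Tnni3 (ENSRNOG00000018250, chr1:72882806-72886488, plus strand), which encodes cardiac troponin I, was at 4913, 6820 and 4490 FPKM in sham and at 5306, 2038 and 4195 FPKM in ischemia. Tnnc1 (ENSRNOG00000018943, chr16:7292096-7295465, plus strand), which encodes the calcium sensor of heart and slow muscle, was at 3065, 3610 and 2963 FPKM in sham and at 2866, 1979 and 3435 FPKM in ischemia. In all 3 genes sham 2 was the highest and ischemia 2 the lowest of the 6 libraries, and ischemia 2 was also the library with 3927 FPKM of neutrophil and monocyte markers. The part of that cell mixture in the troponin levels was not tested. The log2 fold changes were -0.43 ± 0.43 for Tnnt2, -0.59 ± 0.48 for Tnni3 and -0.31 ± 0.35 for Tnnc1 (SE). None passed in edgeR, at adjusted p of 0.512, 0.412 and 0.560, which does not show equal levels. Single libraries moved these values: without sham 2 they were -0.16, -0.25 and -0.09, and without ischemia 2 they were -0.14, -0.26 and -0.08. Without ischemia 1 Tnnt2 was at -0.71 and Tnni3 at -0.90, and without ischemia 3 Tnnc1 was at -0.54. Without both sham 1 and sham 3 they were -0.86, -1.12 and -0.68. Tnni3 overlaps Dnaaf3 on the same strand, so reads of that gene could have been counted in part with it.

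Slow skeletal troponin I was a trace transcript in all 6 libraries. Tnni1 (ENSRNOG00000009073, chr13:52624878-52637297, plus strand), which lies beside Tnnt2, was at 8.91, 2.13 and 3.78 FPKM in sham and at 7.33, 1.54 and 2.24 FPKM in ischemia, from 150 to 875 reads. Sham 1 and ischemia 1, the libraries with the highest atrial marker sums of their groups, were also the highest for Tnni1. By edgeR its log2 fold change of -0.43 ± 0.73 (SE) had an adjusted p of 0.699, and it turned to 0.24 without sham 1, was -0.04 without ischemia 2 and was -1.42 without ischemia 1. Tnni1 made up 0.181%, 0.0313% and 0.0842% of the summed FPKM of the troponin I pair in sham and 0.138%, 0.0755% and 0.0534% in ischemia. The means differed by -0.00986 percentage points with an exact permutation p of 0.9, and the sign changed without sham 1 (0.0312), without ischemia 3 (0.00792) and without both sham 1 and sham 3 (0.0577). The troponin I pair therefore gave no direction.

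Tropomyosin had a lower mean in ischemia, and the groups overlapped. Tpm1 (ENSRNOG00000018184, chr8:72814740-72841496, minus strand), the main tropomyosin gene of the heart, was at 2111, 3008 and 2216 FPKM in sham and at 1734, 1212 and 2295 FPKM in ischemia, with ischemia 3 above 2 sham libraries. By edgeR the log2 fold change of -0.59 ± 0.42 (SE) had an adjusted p of 0.359, and it was -0.27 without sham 2, -0.34 without ischemia 2 and -1.08 without both sham 1 and sham 3. Relative to Tnnc1 of the same library, Tpm1 was at 0.689, 0.833 and 0.748 in sham and at 0.605, 0.613 and 0.668 in ischemia, in FPKM per FPKM. These ratios did not overlap (exact permutation p = 0.1, the smallest possible), with ischemia below sham as in 7.25% of the 13963 tested genes other than Tnnc1, while 23.4% lay above. Against the cardiomyocyte markers Tpm1 overlapped between the groups. Tpm1 held 90.9%, 96.1% and 86.4% of the summed FPKM of Tpm1 to Tpm4 in sham and 87.7%, 68.6% and 86.2% in ischemia, where the groups overlapped (exact permutation p = 0.2).

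The genes of the pointed end were both lower on average in ischemia. Tmod1 (ENSRNOG00000009761, chr5:61657507-61712051, plus strand), which encodes the cap of the filament, was at 141, 120 and 118 FPKM in sham and at 73.2, 44.8 and 95.7 FPKM in ischemia, without overlap. By edgeR its log2 fold change was -0.89 ± 0.34 (SE), a level 1.86-fold lower, at an adjusted p of 0.134. The adjusted p over its 17 alternatives ranged from 0.0545 to 0.409, so no fit called it. Tmod1 shares its locus with Tstd2, whose reads may be mixed with it. Lmod2 (ENSRNOG00000045831, chr4:51553454-51561174, plus strand), which encodes leiomodin of heart muscle, was at 71.0, 61.6 and 56.6 FPKM in sham and at 39.4, 35.2 and 59.3 FPKM in ischemia, and ischemia 3 lay above sham 3. By edgeR its log2 fold change of -0.58 ± 0.29 (SE) had an adjusted p of 0.212, and it was -0.88 without ischemia 3. LOC100909784, annotated as leiomodin-2-like (chr4:51661654-51671203), held 1.10 to 1.15 times the reads of Lmod2 in every library. Whether the 2 genes share reads was not tested, so the level of Lmod2 itself is uncertain. With the reads of both added, the log2 fold change was -0.58.

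Counted together, 8 of the 9 genes had a log2 fold change below 0 and 1, Acta1, was above 0, with a median of -0.58. Of all 13964 tested genes 6996 were below 0, with a median of -0.0015. The cardiomyocyte markers leaned the same way as the 9 genes, with 7 of 8 below 0 and a median of -0.84. None of the 9 was called by edgeR (0 higher and 0 lower), while 6.71% of all tested genes were called, 5.18% as higher and 1.53% as lower. At an unadjusted p under 0.05 in edgeR there were 2 of the 9, Actc1 and Tmod1. So were 4528 of the 13964 tested genes, a share that 2 of 9 does not exceed. With DESeq2 there was 1 call, Actc1, as lower, where 12.5% of all tested genes were called lower and 14.8% higher, so 1 of 9 is near that share. The calls of Actc1 as lower stood beside 1.88% of all tested genes with limma on log2(FPKM + 0.1), 1.5% with limma on log2(FPKM + 1), and 3.57% of the 8156 genes of mean FPKM 5 or more. The FPKM of 2 of the 9 did not overlap with ischemia below sham, where 15% of all tested genes did so, and 0 of the 9 did not overlap with ischemia above, where 23.6% of all tested genes did so.

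**Figure D4:**
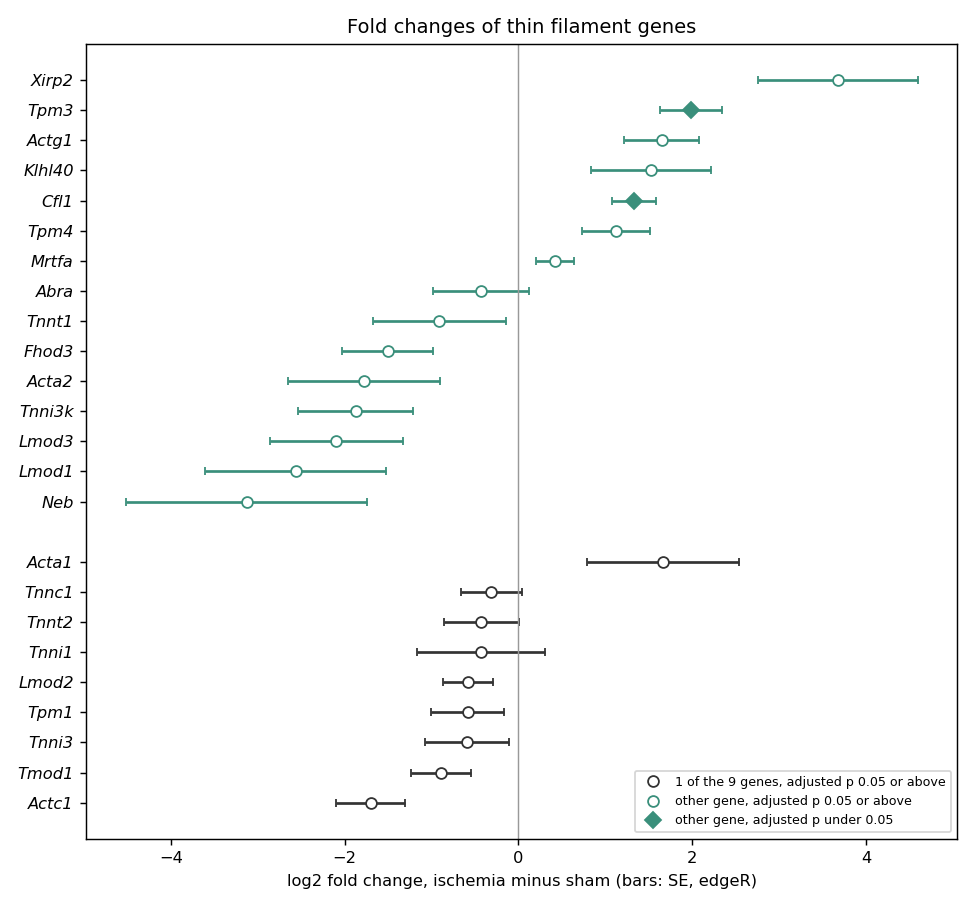
Log2 fold change, ischemia minus sham, by edgeR (horizontal axis, bars are SE) for the 9 thin filament genes (dark, lower block) and 15 other thin filament genes (green, upper block). Filled diamonds mark Tpm3 and Cfl1, the only ones of those shown with an adjusted p under 0.05.

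The level against other cardiomyocyte genes of the same library was used to see whether the 9 genes moved with the rest of the muscle cell's transcripts. Each value is the log2 ratio of the gene's FPKM to the mean log2 FPKM of 8 cardiomyocyte markers (Myh6, Ryr2, Pln, Atp2a2, Actn2, Csrp3, Ckm and Mb). The log2 fold changes of these markers themselves ran from -2.38 for Myh6, the alpha myosin heavy chain, to 1.61 for Csrp3, so they are no fixed reference. On this scale Actc1 was at 3.15, 3.03 and 3.31 in sham and at 1.64, 2.90 and 2.51 in ischemia, a mean difference of -0.81 without overlap. Such a separation with ischemia below sham was held by 2.66% of all tested genes and, of the 9, by Actc1 alone. Tnnt2 was at 2.15, 2.23 and 2.12 in sham and at 2.75, 2.73 and 2.41 in ischemia, a mean difference of 0.46. Tnnc1 was at 1.39, 1.44 and 1.53 in sham and at 1.76, 2.36 and 2.06 in ischemia, a mean difference of 0.60. Both lay above sham without overlap, as did 46.8% of all tested genes, a share that 2 of 9 does not exceed. The other 6 genes overlapped, with mean differences from -0.04 for Tmod1 to 2.46 for Acta1. With each library left out in turn, with both sham 1 and sham 3 left out, with a pseudocount of 1 and with ventricular markers added, Actc1 stayed below sham without overlap, while 1.15% to 7.8% of all tested genes did so. With ventricular markers added to the reference it was the 1 gene of the 9 that did not overlap, in place of 3, and 14.2% of all tested genes lay above. Leaving out ischemia 1 gave 5 genes above (55.5% of all tested genes), sham 2 gave 4 (48.4%), and both sham 1 and sham 3 gave 4 (78.6%).

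**Figure D5:**
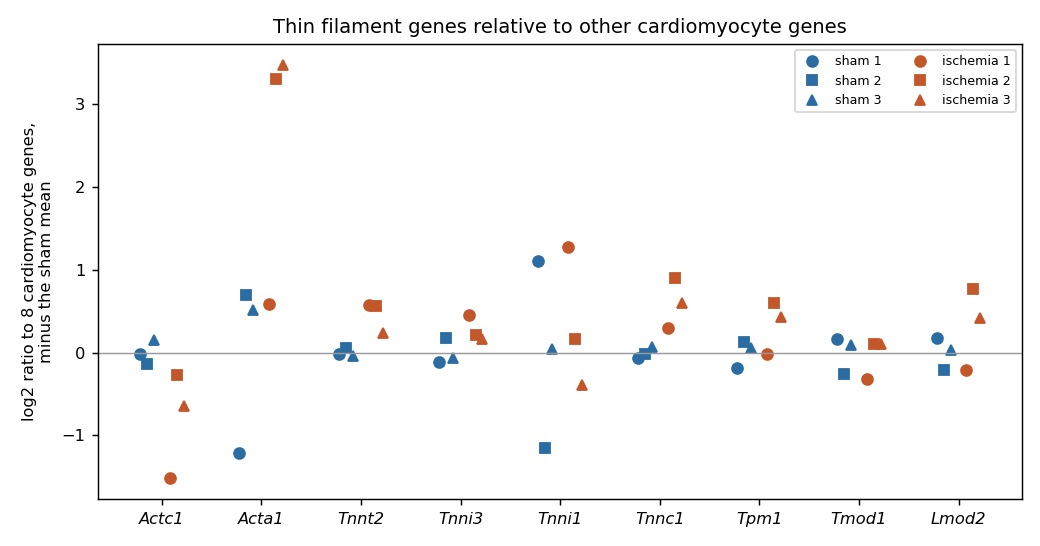
Log2 ratio of each thin filament gene to the mean of 8 cardiomyocyte genes in the same library, drawn as the difference from the sham mean (vertical axis), with 1 symbol per library. All 3 ischemia libraries of Actc1 lie below the sham libraries, and those of Tnnt2 and Tnnc1 lie above them.

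Relative to Tnnc1, Actc1 was at 3.37, 2.9995 and 3.45 in sham and at 0.926, 1.46 and 1.37 in ischemia, in FPKM per FPKM. These ratios did not overlap, with means of 3.27 ± 0.239 and 1.25 ± 0.284 (SD, n = 3) and an exact permutation p of 0.1, the smallest possible. Both actins together, relative to Tnnc1, were at 3.46, 3.33 and 3.72 in sham and at 1.17, 2.53 and 2.85 in ischemia, also without overlap. Ratios to Tnnc1 that lay below sham without overlap were held by 7.25% of single genes, as given for Tpm1. The ratios of Tnnt2 and Tnni3 to Tnnc1 overlapped between the groups (exact permutation p = 0.8 and 0.3).

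The pattern over the 6 libraries was nearest between Tnnt2 and Tnni3, whose centred log2 CPM differed by a root mean square of 0.138, followed by Tnnc1 and Tpm1 at 0.161. Actc1 and Acta1 were far apart at 1.85, and the farthest pair was Acta1 and Tnni1 at 2.14. Among all other tested genes, the nearest to Actc1 was Kcnn3, a calcium-activated potassium channel, at 0.172, followed by Jph2, which joins the sarcoplasmic reticulum to the cell membrane, at 0.203. Kcnn3 had a log2 fold change of -1.89 with an edgeR adjusted p of 0.0397, and Jph2 one of -1.57 with 0.0587. The nearest to Tnnt2 was Atp5me, a subunit of the mitochondrial ATP synthase, at 0.0461, and Atp5po, another subunit, was the second nearest to Tnni3 at 0.0770 after Usp2 at 0.0724. Acta1 had no near neighbour, with Phf24 at 0.494 the closest. Tmod1 was nearest to Lsmem2 at 0.0557, Tnnc1 to Acad9, an acyl-CoA dehydrogenase, at 0.0717, Tpm1 to Dqx1 at 0.126, Tnni1 to AABR07021503 at 0.236, and Lmod2 to LOC100909784 at 0.0189. These distances are descriptions over 6 libraries that share their chamber and immune marker differences.

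Of 40 other genes of the thin filament and its assembly, 38 were in the table and 36 were tested. There were 2 called higher and 0 called lower, against 5.18% and 1.53% of all tested genes, with 18 above and 18 below 0 and a median log2 fold change of 0.06. With DESeq2 16 were called, 9 as higher and 7 as lower, beside 14.8% and 12.5% of all tested genes. Of the genes named from these lists, those that passed with DESeq2 as lower were Tnni3k (adjusted p = 0.0182), Lmod1 (0.0252), Lmod3 (0.0210), Neb (0.0290) and Fhod3 (0.0231). These lists hold genes that are also used in other cell types, and which cell types used the 9 genes was not tested. Those called by edgeR were Tpm3 and Cfl1. Tpm3, a tropomyosin gene of slow muscle and non-muscle cells, was at 25.3, 22.7 and 29.8 FPKM in sham and at 62.8, 174 and 94.3 FPKM in ischemia, and rose by 1.98 ± 0.36 (log2, SE) at an adjusted p of 0.0378 in edgeR. Cfl1, the non-muscle cofilin that severs actin filaments, was at 244, 184 and 293 FPKM in sham and at 464, 786 and 659 FPKM in ischemia, and rose by 1.33 ± 0.25 (log2, SE) at an adjusted p of 0.0396 in edgeR. In both genes the groups did not overlap and ischemia 2, with the highest neutrophil and monocyte markers, was the highest library. The part of those cells in their rise was not tested. Without ischemia 2, Tpm3 kept its call in edgeR at an adjusted p of 0.0382 and Cfl1 lost it at 0.0654. Neither was called without any 1 sham library, without ischemia 3, with the replicate block or with the atrial covariate. Without sham 1 the edgeR adjusted p was 0.160 for Tpm3 and 0.163 for Cfl1. With both sham 1 and sham 3 left out, the log2 fold changes were 1.94 for Tpm3 and 1.46 for Cfl1.

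The cytoplasmic actins, which build the cytoskeleton of all cells, stood above sham in all 3 ischemia libraries but did not pass. Actb and Actg1 summed to 705, 583 and 785 FPKM in sham and to 1131, 3169 and 1833 FPKM in ischemia. The log2 fold change was 1.35 for Actb and 1.65 for Actg1, with edgeR adjusted p of 0.0588 and 0.0658. Actg1 passed with DESeq2 at an adjusted p of 0.00229 and in edgeR without ischemia 1 at 0.0214. Ischemia 2, with the highest neutrophil and monocyte markers, was the highest library for Actb at 1759 FPKM and for Actg1 at 1410 FPKM, and the part of those cells was not tested. Of the other actins, smooth muscle Acta2 had a log2 fold change of -1.78 and an adjusted p of 0.205, with sham 3 at 423 FPKM and every other library at 97.3 FPKM or less, and it was -0.44 without sham 3 and -0.69 with the atrial covariate. In sham 3 the smooth muscle markers also summed highest, to 521 FPKM against 82.4 to 198 FPKM in the others.

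Of the other troponins 0 of 3 tested genes were called. Tnni3k, a kinase that binds cardiac troponin I, was at 55.1, 79.0 and 44.9 FPKM in sham and at 31.5, 5.68 and 15.4 FPKM in ischemia, without overlap, at a log2 fold change of -1.87 and an edgeR adjusted p of 0.116, which was 0.0451 without ischemia 1. Tnnt1, slow skeletal troponin T, was at -0.91 with an adjusted p of 0.430, and turned to 1.55 when sham 1 and sham 3 were left out. The fast skeletal forms Tnni2 and Tnnc2 were under the filter, at 0.733 FPKM or less in every library. Of the other tropomyosins, Tpm4, a non-muscle form, was at 87.9, 68.9 and 97.3 FPKM in sham and at 98.4, 322 and 174 FPKM in ischemia, with a log2 fold change of 1.12 and an adjusted p of 0.114. Ischemia 2 was the highest library here too, and without it the log2 fold change was 0.68. Tpm4 passed with DESeq2 at an adjusted p of 0.0382 and in edgeR without ischemia 1 at 0.0257.

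Of the other end proteins 0 of 8 were called. Lmod1, the smooth muscle leiomodin, was at 2.58, 1.98 and 14.7 FPKM in sham and at 2.26, 0.290 and 0.672 FPKM in ischemia, at a log2 fold change of -2.56 and an edgeR adjusted p of 0.148. Sham 3, where the smooth muscle markers were highest, was the highest library, and the value was -1.20 without it and -1.50 with the atrial covariate. Lmod3, the skeletal form, was at 3.79, 20.0 and 5.12 FPKM in sham and at 3.45, 1.94 and 2.37 FPKM in ischemia, at -2.09 with an adjusted p of 0.124, and at -0.76 without sham 2 and -3.25 without both sham 1 and sham 3. Of 5 scaffold genes 0 were called, although they held both ends of the range. Xirp2, which binds actin at the intercalated disc, was at 8.25, 3.44 and 8.17 FPKM in sham and at 10.5, 143 and 112 FPKM in ischemia, without overlap, at a log2 fold change of 3.68 and an edgeR adjusted p of 0.0603. It passed with DESeq2 at an adjusted p of 6.51e-05 and in edgeR without ischemia 1 at 0.0122. Ischemia 1 stood nearest to sham in this gene, as it did for Acta1. Neb, nebulin, was at 1.66, 0.0396 and 1.56 FPKM in sham and at 0.287, 0.0475 and 0.0307 FPKM in ischemia, at a log2 fold change of -3.13 and an adjusted p of 0.174, so its high libraries were those with high atrial markers. Neb was at -0.24 with the atrial marker level as a covariate, at -0.78 with limma on log2(FPKM + 1), at -1.92 on log2(FPKM + 0.1), and at -4.80 in edgeR without ischemia 1.

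Of 9 tested genes of actin assembly and turnover, Cfl1 was the 1 that passed. Fhod3, the formin that builds cardiac actin filaments, was at 30.5, 48.7 and 24.7 FPKM in sham and at 19.9, 6.79 and 13.2 FPKM in ischemia, without overlap, at a log2 fold change of -1.50 and an edgeR adjusted p of 0.114. Klhl40, which stabilizes Lmod3 in skeletal muscle, was at 1.53 with an adjusted p of 0.180, which was 0.0245 without ischemia 1, and its log2 fold change was 0.74 with the atrial covariate. Of serum response factor and its coactivators, the regulators of actin genes through the CArG box, 0 of 4 were called and the log2 fold changes lay between -0.43 for Abra and 0.42 for Mrtfa. Abra turned to 0.21 without sham 1 and to 0.78 without both sham 1 and sham 3. Kbtbd13 and Mrtfb were not analysed here.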

How the data were processed

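Total RNA libraries of rat myocardium (3 sham, 3 ischemia) were made with a stranded kit per the labels. The submitters' processing notes name STAR and HTSeq, and their versions, the genome build and the counting settings are not given in the sources used here. The authors deposited raw counts per gene, which were whole and not normalized, and the authors' own FPKM values, in which 0.0001 stands for no reads. Total counts ranged from 68529126 to 79591989, so 3 counts, the limit that a count of 0 allows, equal 0.0377 to 0.0438 CPM. That limit covers counting error only.

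Genes of mean FPKM 0.5 or more were tested (13964) with the quasi-likelihood test of edgeR 4.0.16 in R 4.3.3 with TMM scaling and no covariate. Two-sided p-values were adjusted over all tested genes (Benjamini-Hochberg, threshold 0.05). SE was derived from the F statistic. Shares and ratios were compared by exact two-sided permutation of the 6 libraries (20 arrangements). Alternatives used limma 3.58.1, DESeq2 1.42.0, other filters and scalings, covariates, and left-out libraries. The script was tested on simulated data. Figures were drawn in Python 3.11.15 with matplotlib 3.10.9. Coordinates are those of the file. Promoters are from RefSeq GRCr8, and the other coordinates were not mixed with them.

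Named were the 9 genes, called genes of the other thin filament lists with the 2 of largest change per list, and the 2 nearest genes per member by root mean square difference of centred log2 CPM, of which the nearest are printed. Members and lists were chosen with earlier results of these data known. Actb, LOC100361457 and LOC100909784 were added after their values were seen. Ttn, Tcap, Atp2a1, Col1a2, Pecam1, Kbtbd13 and Mrtfb were not analysed here.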

Additional observations from a re-analysis of the deposited data

How the results depend on the processing

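Each group had 3 libraries, the sham libraries differed in chamber markers, and each library held at least 68529126 counts. With 3 against 3, an exact permutation p cannot fall below 0.1. Of the 9 genes, none was called higher in any of the 17 alternatives, and Actc1 was the 1 called lower with limma on log2(FPKM + 0.1), with limma on log2(FPKM + 1), with DESeq2 and with a mean FPKM of at least 5. Apart from Tnni1, the 9 log2 fold changes kept their sign in every alternative that was run.

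All genes called higher and lower numbered 723 and 214, against 2071 and 1742 with DESeq2, and the lower count was 93 without the FPKM filter and 86 with total-count scaling. The higher calls were 77.2% of all calls, 54.3% with DESeq2, 85.8% with total-count scaling and 57.3% without ischemia replicate 1. Counts ran from 0 to 1495 higher and from 0 to 1115 lower when 1 library was left out. They were 0 and 0 without any 1 of the 3 sham libraries or ischemia 3, without both sham 1 and sham 3 (chosen after seeing the data, with the lone sham library taken to vary like ischemia), and with the atrial covariate, where 3085, 3822, 3249, 3029, 1707 and 2645 genes had an unadjusted p under 0.05. Without ischemia 2 they were 445 and 104. The 2 calls of the other thin filament lists were 16 with DESeq2, 1 with total-count scaling, 0 with the atrial covariate, 0 without sham 1 and sham 3, and from 0 to 12 with 1 library left out.

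Replicate numbers did not pair the samples: deviations of same-numbered libraries correlated at -0.06, -0.09 and -0.20. With the replicate block, 0 genes were called higher, 0 lower and 0 of the other thin filament lists, with 3349 genes at an unadjusted p under 0.05.

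Signs changed for 3 named genes and 1 share. Tnni1 went from -0.43 to 0.28 with the atrial covariate, to 0.24 without sham 1 and to 0.50 without sham 1 and sham 3, and ran from -1.42 to 0.24 with 1 library left out. Tnnt1 went from -0.91 to 0.57 and 1.55, and Abra from -0.43 to 0.23 and 0.78, with the atrial covariate and without sham 1 and sham 3, and Abra ran from -0.81 to 0.21 with 1 library left out. The Tnni1 share difference of -0.00986 percentage points ran from -0.0436 to 0.0312 with 1 library left out, was 0.00792 without ischemia 3, and was 0.0577 without sham 1 and sham 3. The 3 genes without overlap relative to cardiomyocyte markers became 1 with ventricular markers added, 5 without sham 1 and sham 3, and from 3 to 6 with 1 library left out. The causes were not tested.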
